A study of Ginkgo biloba with 2 samples.

Results

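Proanthocyanidins, or condensed tannins, are polymers of flavan-3-ols that plants store in vacuoles, often in seed coats, bark and young leaves. The enzyme dihydroflavonol 4-reductase (DFR) makes leucoanthocyanidins, which leucoanthocyanidin reductase (LAR) turns directly into flavan-3-ols of the catechin type. In the other route anthocyanidin synthase (ANS, also called leucoanthocyanidin dioxygenase) oxidises leucoanthocyanidins to anthocyanidins, and anthocyanidin reductase (ANR) reduces these to flavan-3-ols of the epicatechin type. Transcripts described as one of these 4 enzymes, or as isoflavone reductase, a relative of LAR, were followed in female trees of *Ginkgo biloba*, in ovules labelled as mature and in leaves labelled as fully expanded, all collected in April 2012. The descriptions are those of the best protein hit of each reference sequence, as deposited by the authors, and those of glucosyltransferases were left out. The rule selected 30 of 64515 reference sequences: 2 for DFR, 10 for ANS, 7 for ANR, 3 for LAR and 8 for isoflavone reductase.

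There was 1 library per tissue, and neither the number of trees nor any pooling is given in the sources used here. No test across samples was therefore possible, and each difference below is a difference between these 2 libraries. The ovule library held 4581771 uniquely mapped reads and the leaf library 4245222. Folds were taken from reads per 1000000 mapped, with an exact Clopper-Pearson 95% interval that covers counting error only. A count of 0 allows up to 3 reads, and a fold against 0 reads is a lower bound, taken as if there had been 3. RPKM, which divides reads by the length of the sequence in kilobases and by the mapped reads in units of 1000000, is used for levels between sequences. In whole tissues, fewer cells of a type and less RNA per cell cannot be told apart.

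The libraries carried the markers of their labelled tissues. Rubisco activase, a chaperone of the carbon-fixing enzyme, had 280 ovule reads and 5084 leaf reads over 8 sequences, and chlorophyll a-b binding proteins had 2336 and 7184 over 11. Of the chlorophyll a-b binding reads, a single sequence, Unigene6456, held 2122 and 6778, and the rest held 214 and 406. Ginkgo MADS-box factors, regulators of reproductive organs, had 1442 ovule reads and 164 leaf reads over 27 sequences. A single sequence, GbMADS8, held 1012 and 1 of these and the rest 430 and 163, and of the 18 past the filter defined below 9 were called higher in ovule and 7 in leaf, beside 27.3% and 35.1% of all sequences. AINTEGUMENTA-like factors, which promote ovule growth, had 282 ovule reads and 0 leaf reads over 2 sequences, with 275 of the ovule reads on a single sequence. DNA replication licensing factors, a mark of dividing cells, had 1991 ovule reads and 12 leaf reads over 7 sequences. Their part in the differences below was not tested.

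The 4 branch enzymes together had far more reads in ovule, while sequences described as isoflavone reductase did not. The 22 sequences of DFR, ANS, ANR and LAR held 4211 ovule reads and 309 leaf reads, 12.6-fold higher in ovule (95% counting interval, 11.2 to 14.2). Of these reads, Unigene15457 of ANR alone held 2481 and 121, and by enzyme the fold ran from 3.01 for LAR to 42.5 for ANS. The 8 isoflavone reductase sequences held 3180 ovule reads and 3985 leaf reads, 1.35-fold higher in leaf (1.29 to 1.42). Of all 30 sequences, 24 had an RPKM of 1 or more in ovule, leaf or both. Among these 24, 13 were called higher in ovule, by a log2 ratio of RPKM + 0.5 of at least 1, against 27.3% of all 56768 sequences past this filter. Another 5 were called higher in leaf, against 35.1% of all sequences, and 6 were under 2-fold. With a counting interval that also excluded a fold of 1, there were 12 ovule calls and 3 leaf calls, against 17.3% and 13.6% of all sequences. All 13 ovule calls fell in the 4 branch enzymes, and 4 of the 5 leaf calls were isoflavone reductase sequences. The 30 sequences have only 9 proteins as best hits, and sequences that share a hit may be pieces of the same transcript. A single ginkgo ANS protein was the hit behind 6 of the ovule calls, and a single ginkgo protein behind the 4 isoflavone reductase calls. The calls are therefore not counts of separate genes. The median log2 ratio of the 24 was 1.45, beside -0.10 over all sequences past the filter. Of the 15 sequences with at least 20 reads over both libraries, 9 were called higher in ovule and 2 in leaf, against 33.8% and 20.6% of all sequences with that many reads.

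**Figure D1:**
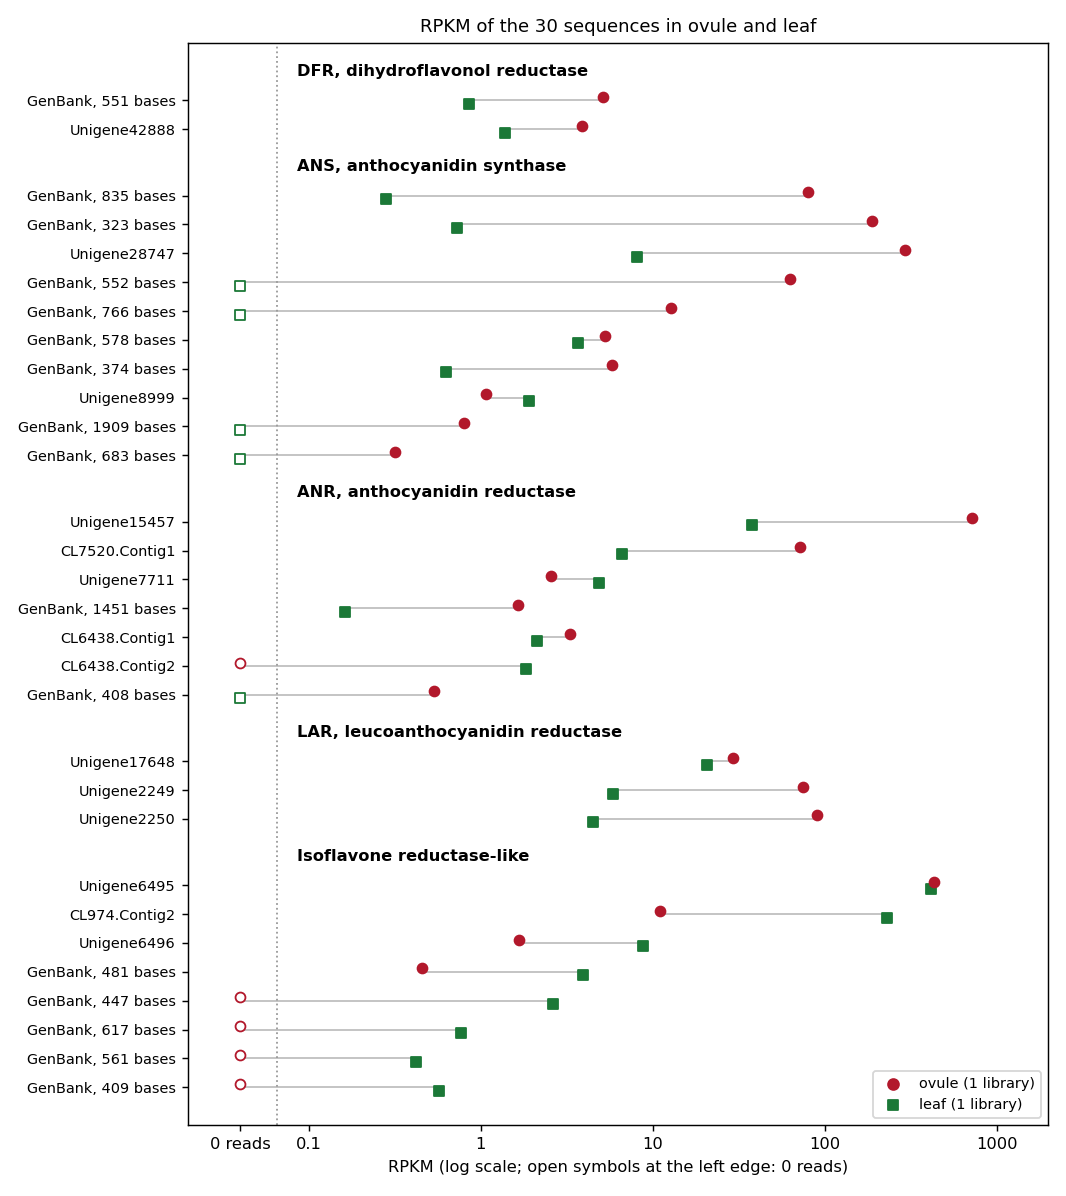
RPKM (log axis) of each of the 30 sequences in the ovule library (red circles) and the leaf library (green squares), grouped by enzyme, with 0 reads drawn as open symbols at the left edge. Unigene15457 of ANR stands at 719 in ovule and 37.9 in leaf, whereas Unigene6495 of the isoflavone reductase group stands at 432 and 413.

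DFR, the entry step of the branch, was barely covered under its own name. A partial ginkgo sequence of 551 bases, deposited in GenBank, had 13 ovule and 2 leaf reads, or an RPKM of 5.15 against 0.855. The fold was 6.02, with an interval from 1.36 to 55.0. The second sequence, Unigene42888, is 169 bases long, has a cotton DFR as its best hit, and had 3 ovule reads and 1 leaf read, too few for a fold. Together they gave 16 and 3 reads, 4.94-fold higher in ovule (1.41 to 26.5).

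ANS had the highest ovule to leaf ratio of the 4 enzymes, at 42.5 (28.2 to 67.3), from 1055 and 23 reads on 10 sequences. This ratio rested on the 8 sequences whose best hit is the ginkgo ANS protein, which held 1038 and 9 reads and differed 107-fold (56.1 to 234). Unigene28747, a fragment of 175 bases and the single assembled sequence among the 8, had 234 ovule reads and 6 leaf reads, an RPKM of 292 against 8.08, and was 36.1-fold higher in ovule (16.4 to 99.5). A GenBank sequence of 323 bases had 277 reads in ovule and 1 in leaf, an RPKM of 187 against 0.729, with a fold of 257 (45.7 to 10173). The most-read ANS sequence, a GenBank entry of 835 bases, had 306 ovule reads and 1 leaf read, an RPKM of 80.0 against 0.282, and a fold of 284 (50.5 to 11235). With 1 leaf read behind each of these folds, their intervals are very wide and overlap that of Unigene28747.

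Another pair of ANS sequences had reads in ovule alone. A GenBank sequence of 552 bases had 158 ovule reads, an RPKM of 62.5, and 0 leaf reads, which allow an RPKM of up to 1.28, so it was at least 48.8-fold higher in ovule. One of 766 bases had 45 and 0 reads, an RPKM of 12.8 in ovule, and was at least 13.9-fold higher. The other 3 sequences with the ginkgo hit had few reads: 10 in ovule and 1 in leaf on a sequence of 374 bases, 7 and 0 on the entry of 1909 bases, and 1 and 0 on one of 683 bases. All 8 had more reads in ovule than in leaf.

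The 2 ANS members that hit proteins of other species stood apart from these 8. A GenBank sequence of 578 bases, best matched to a castor bean leucoanthocyanidin dioxygenase with an E-value of 1.14e-08, had 14 reads in ovule and 9 in leaf, or 1.44-fold more with an interval that includes 1 (0.581 to 3.77). Unigene8999, matched to a soybean leucoanthocyanidin dioxygenase-like protein, had 3 ovule reads and 5 leaf reads. No difference was detectable at this depth for either. Dioxygenases of this class form a large family, and a best hit alone does not show that a sequence encodes ANS.

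Reads lay unevenly along the ANS sequences. The 158 ovule reads on the sequence of 552 bases covered 97 bases, or 17.6% of its length, and the 277 on the sequence of 323 bases covered 192. The 7 ovule reads on the entry of 1909 bases covered 249 bases. Reads were 49 bases long, as sequences with a single read show. The 8 sequences share a best hit and may be pieces of the same transcript, and how unique mapping divided the reads among them is not given in the sources used here, so the RPKM of any one of them does not give the level of the gene.

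ANR took the most reads of the 4 enzymes, with 2754 ovule reads and 164 leaf reads over 7 sequences, 15.6-fold higher in ovule (13.3 to 18.3). Within this step Unigene15457 took 90.1% of reads in ovule and 73.8% in leaf. It had 2481 ovule reads and 121 leaf reads, an RPKM of 719 against 37.9, and was 19.0-fold higher in ovule (15.8 to 23.0). It was also the single reference sequence to carry the gene ontology term for anthocyanidin reductase activity. CL7520.Contig1, with the same ginkgo protein as best hit, had 247 and 21 reads, an RPKM of 71.9 against 6.60, and was 10.9-fold higher in ovule (6.97 to 17.9). The intervals of these contigs overlap. Reads covered 464 of 753 bases of Unigene15457 in ovule and 434 in leaf. On CL7520.Contig1 the 247 ovule reads covered 207 of 750 bases, and the 21 leaf reads covered 241.

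The remaining ANR sequences added little. Unigene7711, whose best hit is a soybean ANR-like protein, had 9 ovule reads and 16 leaf reads, an RPKM of 2.55 against 4.89, and an interval that includes 1 (1.92-fold higher in leaf, 0.798 to 4.93). The ginkgo ANR entry of 1451 bases had 11 ovule reads and 1 leaf read, which covered 7.03% of it in ovule. CL6438.Contig1 had 5 and 3 reads, CL6438.Contig2 had 0 and 2, and a GenBank sequence of 408 bases had 1 and 0. Without Unigene15457 the step held 273 ovule reads against 43 in leaf and was 5.88-fold higher in ovule (4.25 to 8.31).

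LAR sequences differed among themselves. All 3 have the same loblolly pine LAR as best hit, and together they had 386 ovule reads and 119 leaf reads, 3.01-fold higher in ovule (2.44 to 3.72). Without the most-read, Unigene17648, the other 2 held 224 and 14 reads and were 14.8-fold higher in ovule (8.65 to 27.6). The ratio of summed RPKM, which gives short sequences more weight, was 6.29. Unigene17648, the longest (1203 bases), had 162 and 105 reads, an RPKM of 29.4 against 20.6, and was 1.43-fold higher in ovule (1.11 to 1.85). Unigene2249 (401 bases) had 137 ovule reads and 10 leaf reads, an RPKM of 74.6 against 5.87, and a fold of 12.7 (6.70 to 27.1). Unigene2250 (210 bases) had 87 and 4 reads, an RPKM of 90.4 against 4.49, and a fold of 20.2 (7.59 to 75.6). The intervals of the short sequences overlap each other, and neither overlaps that of Unigene17648. In leaf the long sequence took 88.2% of the LAR reads, and in ovule it took 42.0%. Ovule reads covered at least 97.1% of each of the 3, and leaf reads covered 88.5% of Unigene17648, 49.9% of Unigene2249 and 57.6% of Unigene2250. Whether the short sequences belong to a gene of their own or to another part of the same transcript cannot be told from the deposited tables.

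**Figure D2:**
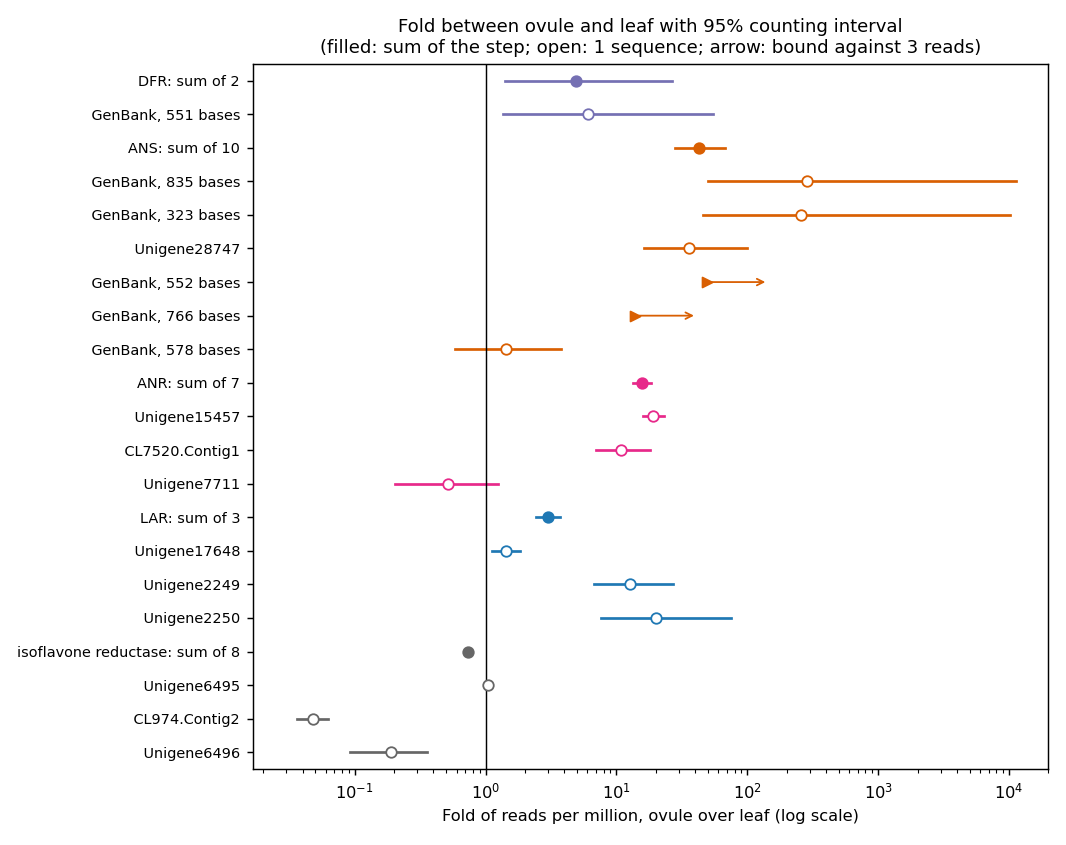
Fold of reads per 1000000, ovule over leaf (log axis), with 95% counting intervals, for the summed reads of each step (filled) and for single sequences (open) with at least 20 reads over both libraries, plus the most-read DFR sequence. Arrows start at lower bounds computed against 3 leaf reads. ANS sums to 42.5, ANR to 15.6 and LAR to 3.01, whereas CL974.Contig2 lies far to the left, at 20.9-fold higher in leaf.

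Set side by side, the intervals of ANS, ANR and LAR do not overlap, in that order from high to low, and the wide interval of DFR overlaps those of ANR and LAR. This order holds for the sums over all sequences. With each step's most-read sequence left out, ANS was 31.5-fold (20.7 to 50.6), ANR 5.88-fold and LAR 14.8-fold higher in ovule, so that LAR lay above ANR and its interval overlapped that of ANS. As a level, the summed RPKM of sequences shorter than the gene is not comparable between steps. Per sequence, the RPKM in ovule was highest for Unigene15457 of ANR (719), then Unigene6495 of the isoflavone reductase group (432) and Unigene28747 of ANS (292). In leaf the order was Unigene6495 (413), CL974.Contig2 of the same group (230) and Unigene15457 (37.9). These are levels of single sequences and not of genes. Unigene28747 is a fragment of 175 bases, and the most-read ANS sequence, of 835 bases, had an ovule RPKM of 80.0.

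The isoflavone reductase group split into an even sequence and several that were higher in leaf. Its name comes from an enzyme of isoflavonoid synthesis in legumes, and in other plants relatives of it act on lignans and similar phenolics. All 8 sequences have a single ginkgo isoflavone reductase-like protein as best hit. Unigene6495 (1568 bases), the most-read of the 30, had 3107 ovule reads and 2747 leaf reads, an RPKM of 432 against 413, and a fold of 1.05 with an interval that includes 1 (0.995 to 1.10). Reads covered 99.2% of it in ovule and 96.7% in leaf. CL974.Contig2 (1189 bases) had 60 ovule reads and 1162 leaf reads, an RPKM of 11.0 against 230, and was 20.9-fold higher in leaf (16.1 to 27.6). Unigene6496 (1574 bases) had 12 and 59 reads, an RPKM of 1.66 against 8.83, and was 5.31-fold higher in leaf (2.82 to 10.8). The other 5 are GenBank sequences with 1 ovule read and 17 leaf reads in all. Of these, the sequence of 481 bases had 1 and 8 reads, and those of 447, 617, 561 and 409 bases had no ovule reads and 5, 2, 1 and 1 leaf reads. Every sequence of the group but Unigene6495 had more reads in leaf, and the group without it was 18.3-fold higher in leaf (14.4 to 23.5). Of the 1238 leaf reads behind that fold, 1162 lay on CL974.Contig2. Leaf reads covered 35.4% of CL974.Contig2 and 20.6% of Unigene6496. As for ANS, sequences that share a best hit may be pieces of the same transcript, and how reads were divided among them is not given.

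CL974.Contig1, which shares the cluster name of CL974.Contig2, is described as phenylcoumaran benzylic ether reductase, an enzyme of the same family as LAR and isoflavone reductase. It had 0 ovule reads and 6 leaf reads, at least 2.16-fold higher in leaf. Pinoresinol reductases, also of this family and part of lignan synthesis, went the other way, with 120 ovule reads and 11 leaf reads over 4 sequences, 10.1-fold higher in ovule (5.45 to 20.8). All 4 of these were called higher in ovule, beside 27.3% of all sequences past the filter.

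The members shared few annotations that the rule did not use. The best hit was a ginkgo protein for 23 of the 30, a loblolly pine protein for the 3 LAR sequences, and a protein of cotton, castor bean or soybean for the other 4. Among the 10 ANS members, 6 carried the gene ontology term for 2-oxoglutarate-dependent oxidoreductases, the class ANS belongs to. Another 3 carried the terms for leucocyanidin oxygenase activity and for proanthocyanidin biosynthesis. These 3 held 352 ovule reads and 1 leaf read, and no sequence outside the members carried the leucocyanidin term. Nucleotide binding was attached to 7 of 8 isoflavone reductase sequences, 2 of 3 LAR, 1 of 7 ANR and 1 of 2 DFR sequences. Neither a function term nor a process term was attached to 3 of the 30. The reference was uneven between steps: 14 of the 30 sequences were assembled, among them all 3 of LAR and 5 of 7 of ANR but 2 of 10 of ANS.

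The gene ontology column attached the DFR reaction to further sequences that the descriptions do not name so. This list was chosen after its values were seen. The term for dihydrokaempferol 4-reductase activity, the reaction of DFR, was attached to 21 sequences, of which 20 are outside the 30. The best hit of 11 is a Sitka spruce protein described as unknown, and that of 9 is a cinnamoyl-CoA reductase, an enzyme of lignin synthesis in the same superfamily as DFR and ANR. The term therefore does not single out DFR. The 11 of unknown description held 5302 ovule reads and 1297 leaf reads, 3.79-fold higher in ovule (3.56 to 4.03), against the 16 and 3 reads on the sequences named DFR. Of all sequences past the filter, 27.3% were called higher in ovule and 35.1% in leaf. Of the 10 of these 11 that passed it, 6 were called higher in ovule, none in leaf, and 4 were under 2-fold. Their other terms divide them. The term for synthesis of anthocyanin-containing compounds was on 3 of the 11, with 3806 ovule reads and 562 leaf reads, 6.27-fold higher in ovule (5.74 to 6.87). Cinnamoyl-CoA reductase activity was on another 6, all of which also carried the lignin synthesis term, with 1154 ovule reads and 518 leaf reads, 2.06-fold higher in ovule (1.86 to 2.29). The remaining 2 carried neither, and one of them, Unigene6267, with 342 and 213 reads, carried the term for farnesol dehydrogenase activity. The ginkgo sequence of 551 bases named DFR carried the same function and process terms as the 3 with the anthocyanin term. Shared terms do not show the encoded enzyme, and which of the 11, if any, encode DFR cannot be told from the deposited tables.

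These 11 sequences ranged widely. The 3 with the anthocyanin term share a best hit. Of these, CL6950.Contig1 (1432 bases) had 3068 ovule reads and 529 leaf reads, an RPKM of 468 against 87.0, and was 5.37-fold higher in ovule (4.90 to 5.90). CL6950.Contig2 shares its cluster name, and at 296 ovule reads against 30 in leaf it was 9.14-fold higher (6.27 to 13.8). The third, a GenBank sequence of 1136 bases, had 442 ovule reads and 3 leaf reads, an RPKM of 84.9 against 0.622, and a fold of 137 (46.4 to 664). Among those with the cinnamoyl-CoA reductase term, CL4071.Contig1 was 11.7-fold higher in ovule (8.35 to 17.0), with 456 and 36 reads, and CL4071.Contig4 had 424 and 267, 1.47-fold higher (1.26 to 1.72). Unigene11124 leaned to leaf, with 79 ovule reads and 106 leaf reads, 1.45-fold higher in leaf (1.07 to 1.96). The 9 sequences described as cinnamoyl-CoA reductase held 203 ovule reads and 462 leaf reads, 2.46-fold higher in leaf (2.08 to 2.91). They differed among themselves. Unigene6362 had 148 and 360 reads, 2.63-fold higher in leaf (2.16 to 3.20). A GenBank sequence of 771 bases had 21 and 2, 9.73-fold higher in ovule (2.38 to 85.6). It carries a term for sporopollenin, a pollen wall polymer, and neither the cinnamoyl-CoA reductase activity nor the lignin synthesis term. Unigene9824, Unigene26919 and a GenBank sequence of 731 bases share its best hit and its terms. They had 7 and 6, 7 and 3, and 6 and 1 reads in ovule and leaf.

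**Figure D3:**
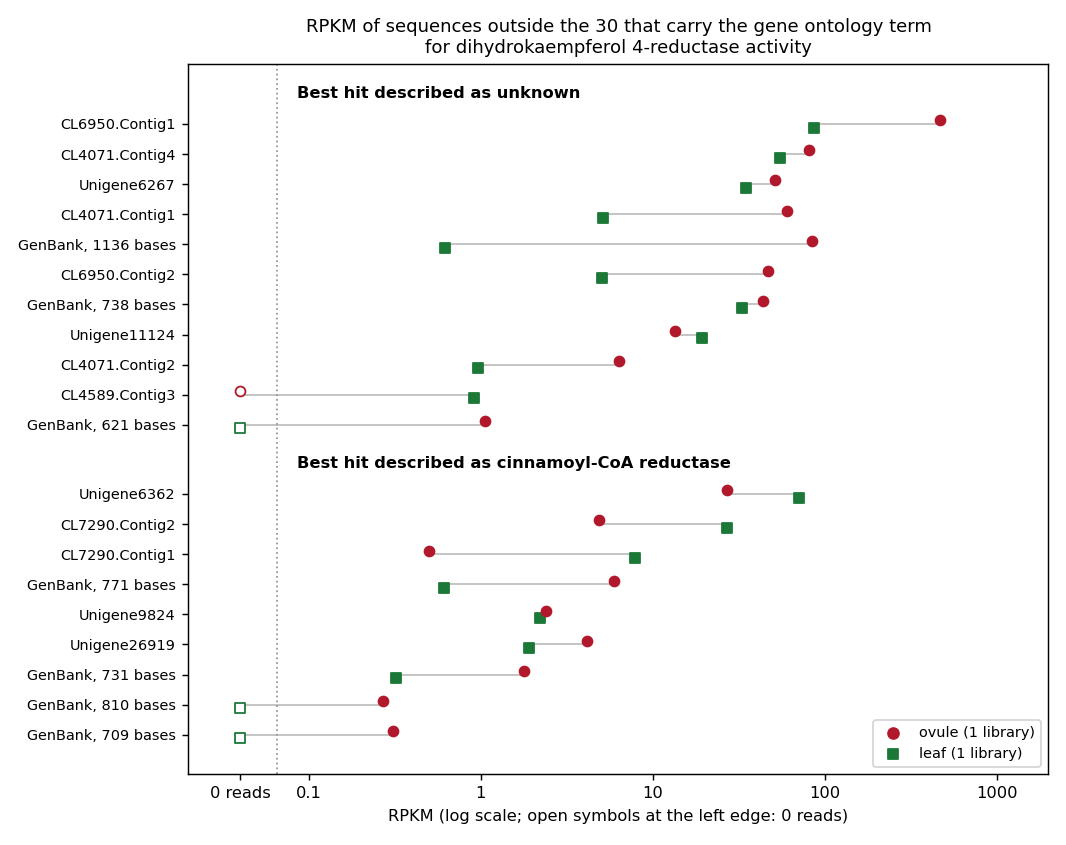
RPKM (log axis) in the ovule library (red circles) and the leaf library (green squares) of the 20 sequences outside the 30 that carry the gene ontology term for dihydrokaempferol 4-reductase activity, grouped by the description of the best hit. CL6950.Contig1 stands at 468 in ovule and 87.0 in leaf, whereas Unigene6362, described as cinnamoyl-CoA reductase, stands at 27.0 and 71.0.

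Upstream, the steps that build the flavonoid skeleton lay toward ovule, and the general phenylpropanoid steps were mixed. Counts of calls in these lists stand beside 27.3% called higher in ovule and 35.1% in leaf over all sequences past the filter. Chalcone synthase (CHS), the first committed enzyme, was 9.14-fold higher in ovule over 14 sequences (8.37 to 9.996), with 6 of the 7 past the filter called higher in ovule and none in leaf. Its most-read sequence, Unigene25696, had 2013 ovule reads and 4 leaf reads and carries the gene ontology terms for tetraketide alpha-pyrone synthase activity and for synthesis of sporopollenin, the polymer of pollen walls, rather than for CHS activity. Without it CHS was 5.78-fold higher in ovule (5.28 to 6.34). Flavanone 3-hydroxylase (F3H), which supplies the dihydroflavonols that DFR uses, had 436 ovule reads and 62 leaf reads over 8 sequences, 6.52-fold higher (4.98 to 8.65), with 4 of 5 called in ovule and 1 in leaf. Flavonol synthase (FLS) draws on the same dihydroflavonols, and at 1909 ovule reads against 108 in leaf on 10 sequences it was 16.4-fold higher in ovule (13.5 to 20.1). Of its 9 sequences past the filter, 8 were called higher in ovule, and without the most-read of the 10 the fold was 29.1 (17.7 to 51.3). Phenylalanine ammonia-lyase (PAL) was 2.01-fold higher in ovule (1.83 to 2.20), with 10 of 17 called in ovule and 3 in leaf, and 5.92-fold higher (4.54 to 7.83) without its most-read sequence. Cinnamate 4-hydroxylase (C4H) had 149 ovule reads and 459 leaf reads over 3 sequences, 3.32-fold higher in leaf (2.76 to 4.03), and 4-coumarate-CoA ligase (4CL) had 1416 and 1736 over 11, 1.32-fold higher in leaf (1.23 to 1.42). Without their most-read sequences the C4H counts were 11 and 11, and 4CL was 1.16-fold higher in ovule (1.06 to 1.27). Flavonoid 3'-hydroxylases had 6 reads in ovule and 10 in leaf, with an interval that includes 1, and no description matched chalcone isomerase. Over all sequences the intervals of FLS and ANR overlap, and that of ANS lies above both. Without the most-read sequences the interval of FLS overlaps that of ANS and lies above that of ANR.

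**Figure D4:**
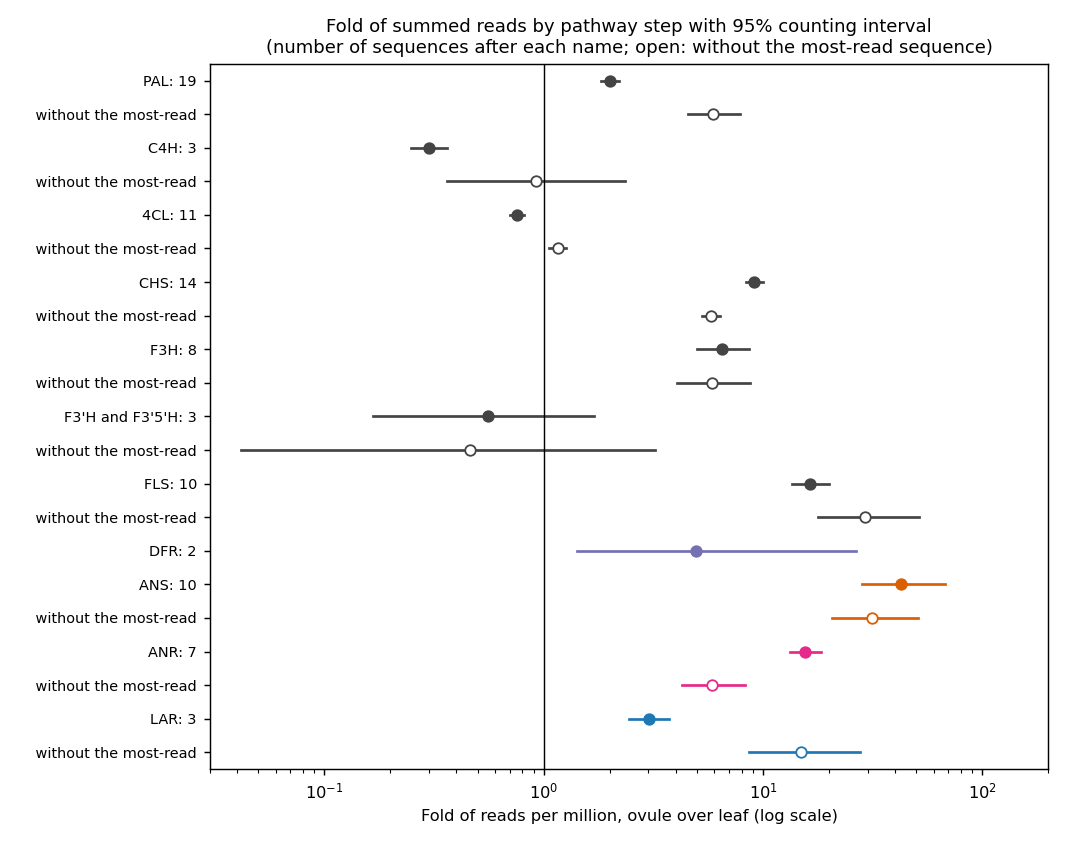
Fold of summed reads per 1000000, ovule over leaf (log axis), with 95% counting intervals, for each step from PAL to LAR, with all sequences (filled) and without the most-read sequence (open; DFR has too few reads left). FLS at 16.4, ANS at 42.5 and ANR at 15.6 lie farthest toward ovule, and C4H, at 3.32-fold higher in leaf, lies to the left.

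Downstream and regulatory genes did not lie on 1 side. Glucosyltransferases of anthocyanidins or flavonoids had 575 ovule reads and 747 leaf reads over 6 sequences, 1.40-fold higher in leaf (1.26 to 1.57). Of the 5 past the filter, 1 was called higher in ovule and 2 in leaf, beside 27.3% and 35.1% of all sequences. Without CL8131.Contig1 the glucosyltransferases had 111 and 92 reads, 1.12-fold more in ovule with an interval that includes 1 (0.840 to 1.49). Transporters described as MATE had 193 ovule reads and 102 leaf reads over 9 sequences, 1.75-fold higher in ovule (1.37 to 2.25). Of the 7 past the filter, 2 were called higher in ovule and 2 in leaf, beside the same shares. Without the most-read, MATE sequences had 74 and 61 reads, 1.12-fold more in ovule with an interval that includes 1 (0.790 to 1.60). TT12 in *Arabidopsis* is a vacuolar transporter needed for proanthocyanidin storage in the seed coat. CL2774.Contig1, matched to the cotton TT12a protein and carrying the gene ontology term for proanthocyanidin biosynthesis, had 54 ovule reads and 160 leaf reads, 3.20-fold higher in leaf (2.34 to 4.44). The 6 sequences outside the members that carry this term, seen after their values, held 98 ovule reads and 207 leaf reads. Among the 6 outside the members were CL2774.Contig2, also matched to TT12a, with 4 and 11 reads, and CL3469.Contig2, a plasma membrane proton pump, with 23 and 28. Unigene36682, described as a hypothetical protein but with the same transporter terms as CL2774.Contig1, had 13 and 0 and was at least 4.02-fold higher in ovule.

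Of 10 sequences described as TRANSPARENT TESTA or TT8 proteins, 4 were called higher in ovule and 6 in leaf, beside 27.3% and 35.1% of all sequences past the filter. Of these calls, 1 in ovule and 3 in leaf rest on 3 reads or fewer in each library. Of the TT12 matches among the 10, that to TT12 isoform 1 had 9 ovule reads and 1 leaf read, 8.34-fold higher in ovule (1.16 to 366). The others lay toward leaf. Unigene17038 had 8 and 24, 3.24-fold higher in leaf (1.41 to 8.34). The 4 described as TT12-like together had 1 and 11, 11.9-fold higher in leaf (1.73 to 511). A TT8-like bHLH factor (Unigene39057), of a type that in *Arabidopsis* activates proanthocyanidin genes, had 23 ovule reads and 4 leaf reads, 5.33-fold higher in ovule (1.82 to 21.2). TT1-like zinc finger proteins went both ways, with 49 and 19 reads on Unigene29307 and 18 and 85 on CL3027.Contig1. MYB factors, a large family of which few members act on this pathway, were called higher in ovule in 16 of 30 cases and in leaf in 6, and bHLH factors in 1 and 2 of 13, against the same shares of all sequences.

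With 2 libraries, likeness to a member can be given only as distance in log2(RPKM + 0.5). Nearest to Unigene6495, the most-read member, among 5666 sequences with a description that names a function and was not marked as predicted, were a methylthiopentene dioxygenase (Unigene23932, distance 0.60), a translation initiation factor 5A (CL328.Contig2, 0.65) and an aquaporin (CL5175.Contig1, 0.70). Nearest to Unigene15457 of ANR, a choice made after its values were seen, were a hydroxyproline-rich glycoprotein (Unigene23103, 0.38), another aquaporin (Unigene11903, 0.44) and an arginine decarboxylase (Unigene24415, 0.84).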

How the data were processed

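RNA from 1 ovule sample and 1 leaf sample was sequenced on libraries made by the standard Illumina procedure, per the labels' protocols. The authors gave each reference sequence a count of uniquely mapped reads, a length, the percent of its bases covered and an RPKM, per the file headers, with gene ontology terms and the best hit in the nr protein database. The title names a de novo assembly, but neither its assembler nor the aligner is given in the sources used here.

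The tables were joined by sequence identifier, and a sequence absent from a table was taken to have 0 reads. Read columns summed to the header totals, and RPKM matched reads, length and total to a relative tolerance of 1e-06. A call needed a log2 ratio of ovule over leaf, taken of RPKM + 0.5, of at least 1 in size, and an RPKM of 1 or more in either library. Adding 0.5 draws the ratio toward 0 where RPKM is low. Short sequences can still be called on few reads. Unigene42888 was called with 3 ovule reads and 1 leaf read, and CL6438.Contig2 with 0 and 2. A description that names 2 steps went to the first of LAR, ANR, ANS, DFR and isoflavone reductase. Members with at least 20 reads over both libraries were named, as were the 2 most-read of a step with none. Members and lists were chosen with earlier results of these data known. The scripts used Python 3.11.15, scipy 1.17.1 and, for TMM factors alone, edgeR 4.0.16, and were tested on simulated data. Sequences were not printed because the tables hold none.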

Additional observations from a re-analysis of the deposited data

How the results depend on the processing

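No paired analysis was possible because each tissue has 1 library, and for the same reason no replicate could be left out. The median log2 ratio over all sequences past the filter was -0.10, and became -0.23 with TMM factors and -0.24 in TPM, so ratios near 0 carry no direction: Unigene6495 stood at 0.07, -0.09 and -0.10 in these scalings, and no other of the 17 named sequences changed sign in 68 recomputed values. The number of members called higher in leaf (5) was 2 with a filter at an RPKM of 5 or at 20 reads, to 3 among assembled sequences, among sequences with reads in both libraries, and with a counting interval that excludes 1, and to 1 without isoflavone reductase sequences. Members called higher in ovule (13) were 6 among assembled sequences alone. Over all sequences, the ovule calls (15522) were 8223 at 20 or more reads and 9794 with the counting interval, and the leaf calls (19921) were 7141 with the filter at an RPKM of 5, 5013 at 20 or more reads, 8752 with reads in both libraries and 7703 with the counting interval.

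As ratios of ovule over leaf, ANS (42.5) was 19.96 among assembled sequences and 107 among those with the ginkgo hit, ANR (15.6) was 5.88 without its most-read sequence, and LAR (3.01) was 14.8 without its most-read sequence and 6.29 as summed RPKM. The isoflavone reductase ratio (0.739) was 0.665 under TMM scaling, 0.675 as summed RPKM, 0.0546 without Unigene6495, and 1.05, the other direction, with sequences covered over at least 50% of their bases, which leaves Unigene6495 alone. DFR (4.94) was 2.90 over the gene ontology term, an alternative chosen after seeing the data, as were those by the ginkgo hit and without isoflavone reductase. Too few DFR reads were left for a ratio without its most-read sequence, among assembled sequences or by coverage. The cause of these changes was not tested. Sequences with 1 or 0 reads in either library have wide intervals or bounds.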
